A study of Mus musculus with 16 samples.

Results

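Microglia read extracellular nucleotides through a set of surface receptors and enzymes, and 9 genes of that set were followed here. They were the ATP-gated channels P2rx4 and P2rx7, the UDP receptor P2ry6, the UDP-glucose receptor P2ry14, the adenosine receptors Adora1, Adora2a and Adora3, and the ectonucleotidases Entpd1 (CD39) and Nt5e (CD73). The genes were chosen by symbol for their part in ATP, UDP and adenosine signalling, leaving out P2ry12 and P2ry13. All 9 were rows of the count table of 57010 genes, and 9 of 9 were among the 18227 genes with enough counts to be tested.

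The counts came from microglia of the olfactory bulb (OB) of mice aged 2 months. WT mice were C57BL/6J, and APP-NL-G-F mice (KI) carried, on the same background, an App gene humanised by knock-in and bearing the Swedish, Arctic and Iberian changes. Each genotype had 4 female and 4 male libraries, 16 in all, with 9052932 to 18117286 counts per library. The cells were taken from the tissue with magnetic beads against CD11b, a surface protein that other myeloid cells also carry. The knock-in sits in the mouse's own App gene, so its expression is not limited to 1 cell type. The labels do not say that each library was a separate mouse, and without that p-values measure only the spread between these libraries.

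Damaged or active cells release ATP and UDP. P2X receptors open as cation channels when ATP binds, and P2Y receptors signal through G proteins. Entpd1 removes phosphates from ATP and ADP to give AMP, Nt5e turns AMP into adenosine, and adenosine acts on its own G protein-coupled receptors. In microglia, P2rx7 is known for triggering release of interleukin-1 beta at high ATP, P2rx4 for its rise after nerve injury, and P2ry6 for starting phagocytosis.

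P2rx7 (ENSMUSG00000029468) and P2rx4 (ENSMUSG00000029470) lie on the plus strand of chromosome 5 of GRCm39, from 122781942 to 122830400 and from 122845541 to 122867803. Nt5e (ENSMUSG00000032420) spans 88209089 to 88254146 of chromosome 9 on the plus strand. P2ry14 (ENSMUSG00000036381) spans 59021276 to 59061134 of chromosome 3 on the minus strand, inside the span of Med12l on the other strand. The 250 bases before their RefSeq starts, from a table on build GRCm38.p6, are printed 5′ to 3′ because the genotype results turn on these 4 genes. Capitals mark matches to the AP-1 motif TGANTCA, which reads the same on both strands.
P2rx7, chr5:122643677-122643926, plus strand: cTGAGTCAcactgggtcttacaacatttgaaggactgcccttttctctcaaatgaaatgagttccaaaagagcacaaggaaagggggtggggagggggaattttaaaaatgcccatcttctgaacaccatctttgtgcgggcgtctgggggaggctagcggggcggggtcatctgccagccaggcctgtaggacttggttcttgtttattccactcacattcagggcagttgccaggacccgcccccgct
P2rx4, chr5:122707294-122707543, plus strand: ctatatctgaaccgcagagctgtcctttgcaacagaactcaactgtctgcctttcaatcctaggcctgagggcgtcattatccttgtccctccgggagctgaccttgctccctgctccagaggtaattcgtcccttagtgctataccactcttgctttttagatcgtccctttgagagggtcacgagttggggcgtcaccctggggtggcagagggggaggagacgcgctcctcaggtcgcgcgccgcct
Nt5e, chr9:88327359-88327608, plus strand: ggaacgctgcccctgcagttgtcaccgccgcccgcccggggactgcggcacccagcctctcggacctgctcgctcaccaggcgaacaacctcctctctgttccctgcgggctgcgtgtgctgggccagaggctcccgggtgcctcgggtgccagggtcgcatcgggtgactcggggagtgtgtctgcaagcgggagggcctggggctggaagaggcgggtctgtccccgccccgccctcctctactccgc
P2ry14, chr3:59153493-59153742, minus strand: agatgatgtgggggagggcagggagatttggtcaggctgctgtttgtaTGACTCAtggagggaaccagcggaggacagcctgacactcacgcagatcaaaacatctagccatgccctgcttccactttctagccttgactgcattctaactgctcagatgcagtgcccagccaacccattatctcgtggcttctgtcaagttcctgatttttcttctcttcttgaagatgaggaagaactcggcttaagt
The table matched 7 of the 9 genes by symbol, all but P2ry6 and Adora2a. The AP-1 letters occurred in 4 of these 7, in P2rx7, P2ry14, Adora1 and Adora3, against 6.87% of 27025 RefSeq promoters of the same length. The GC box GGGCGG, searched on both strands, occurred in 3 of the 7, 4 times before Nt5e, 3 times before Adora1 and 2 times before P2rx7, and was held by 32.9% of all promoters. Of the 250 bases, 72% were G or C before Nt5e, 57.2% before P2rx4, 53.6% before P2rx7 and 50% before P2ry14. The letters of the PU.1 core GAGGAAGT, on either strand, occurred in Adora3 alone of the 7 and in 2.44% of all promoters. A match describes the letters in the window and is not a binding site.

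Counts were scaled to a common library total (CPM), with totals adjusted by the trimmed mean of M-values (TMM). To compare genes with each other, CPM was divided by the exonic length in kb, taken from a later GENCODE release than the one counted. The length covers every annotated exon, 11234 bases for P2ry14 and 5260 for Adora2a, so the order rests on it. On that scale the degrading enzyme Entpd1 stood far above all the receptors among the 9 genes. It had 90.8 ± 5.19 CPM per kb in WT (SD, n = 8), which is above 98.57% of the 17317 tested genes with a length. P2rx7 followed with a level of 15.3 ± 0.57 CPM per kb and P2ry6 with 14.6 ± 1.32. Adora3 had 5.74 ± 0.645 and P2rx4 5.74 ± 0.547 CPM per kb. Adora1 was lower, with a level of 1.08 ± 0.141 CPM per kb. Nt5e, which makes adenosine, had 0.233 ± 0.0655, Adora2a 0.188 ± 0.0373 and P2ry14 0.101 ± 0.0572 CPM per kb.

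The order had 4 clear steps among WT libraries, where the ranges of neighbours did not overlap. Entpd1 exceeded P2rx7 by 5.945 times, P2ry6 exceeded Adora3 by 2.549 times, P2rx4 exceeded Adora1 by 5.289 times and Adora1 exceeded Nt5e by 4.654 times, each in 16 of 16 libraries. P2rx7 and P2ry6 overlapped, as did Adora3 and P2rx4, Nt5e and Adora2a, and Adora2a and P2ry14. The 2 enzymes that act in sequence were thus at opposite ends, Entpd1 near the top of all tested genes and Nt5e above only 10.52% of them. For scale, P2ry12 and P2ry13, the ADP receptors that mark resting microglia, had levels of 482.9 and 137.7 CPM per kb in WT.

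**Figure D1:**
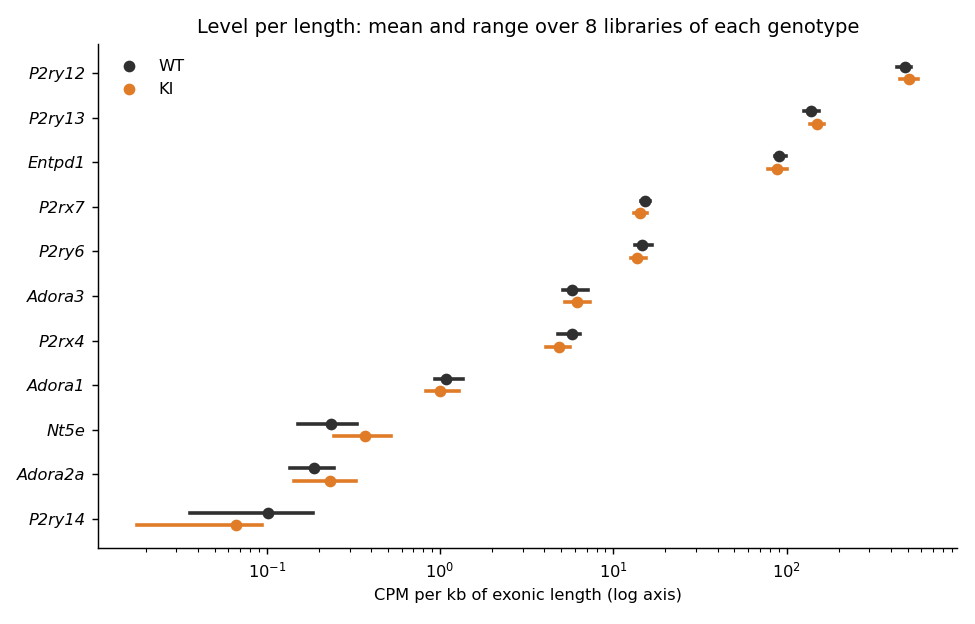
Level of each gene in CPM per kb of exonic length on a log axis, with a point at the mean and a line over the range of the 8 libraries of each genotype (WT black, KI orange). Entpd1 stands alone below P2ry12 and P2ry13, a middle group runs from P2rx7 to P2rx4, and Nt5e, Adora2a and P2ry14 lie at the bottom.

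The microglial label was checked against markers. The 12 microglia markers summed to 21050 ± 1123 CPM in WT and 21040 ± 1194 CPM in KI (SD, n = 8 each), led by Csf1r at a mean of 5665 CPM, and 0 of 12 differed between the genotypes. Markers of other cells were present at lower levels. The sums over WT and KI were 581.6 and 629.8 CPM for border macrophages, 25.3 and 27.2 for monocytes, 10.3 and 11.6 for neutrophils, and 7.29 and 8.01 for T and NK cells, led by Mrc1, Ccr2, S100a9 and Cd4. Of the 7 T and NK cell markers 6 were under the filter, and Cd4, which macrophages can also carry, made up most of that sum. None of the marker genes was at 0 in all libraries.

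The first comparison asked whether the purine genes differed between KI and WT microglia. The test was the quasi-likelihood test of edgeR, in a fit with sex and genotype. Calls needed a p adjusted over all tested genes (Benjamini-Hochberg FDR) below 0.1 together with a log2 fold change beyond 0.5 in either direction. Of the 9 genes, 1 was called, Nt5e, which rose, and 0 were called lower. The background was 8.64% of all tested genes called, 4.33% higher and 4.3% lower. By the FDR alone 3 of 9 passed, Nt5e higher and P2rx4 and P2rx7 lower, against 14.8% of all tested genes, 6.95% higher and 7.82% lower. Over the 9 genes the log2 fold changes had a median of -0.09, with 3 above and 6 below 0, beside a median of -0.00 over all tested genes. The libraries of the genotypes overlapped in all 9 genes, while they did not overlap in 1.29% of all tested genes.

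Nt5e, the enzyme that makes adenosine from AMP, rose in KI microglia. Its CPM were 1.376, 1.619, 2.07 and 2.905 in the WT females and 2.398, 2.081, 2.578 and 1.32 in the WT males. They were 2.141, 2.164, 3.875 and 4.191 in the KI females and 3.658, 4.55, 3.022 and 2.389 in the KI males. All 8 KI libraries exceeded the WT median, but the ranges overlapped, since 3 KI libraries lay below the highest WT female. The mean went from 2.04 ± 0.574 to 3.25 ± 0.951 CPM (SD, n = 8 each). The fold was 1.58, a log2 fold change of 0.66 ± 0.208 (SE) with a 95% interval of 0.23 to 1.10 (edgeR FDR = 0.0528). When genotype was exchanged within sex in an exact permutation test of 4900 splits, the two-sided p was 0.0122. The log2 fold change was 0.63 in females (edgeR FDR = 0.245) and 0.69 in males (edgeR FDR = 0.384), and neither sex passed alone. The difference between the sexes was -0.06, with a 95% interval of -0.96 to 0.83. Nt5e rested on only 13 to 56 counts per library. Without WT female 1, KI male 2, KI female 3 or KI female 4 its log2 fold change was 0.59, 0.59, 0.61 or 0.58, with an edgeR FDR of 0.112, 0.121, 0.11 or 0.108.

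P2rx4, an ATP-gated channel, was lower in KI microglia by the FDR alone. Its CPM were 43.28, 48.21, 46.26 and 49.73 in the WT females and 44.63, 47.98, 37.21 and 40.43 in the WT males. In KI they were 34.99, 42.99, 34.45 and 38.92 in the females and 31.64, 34.5, 44.08 and 39.84 in the males. All 8 KI libraries lay below the WT median of 45.4 CPM, but the ranges of the genotypes overlapped. The mean went from 44.7 ± 4.26 to 37.7 ± 4.46 CPM (SD, n = 8 each). This was a log2 fold change of -0.25 ± 0.0724 (SE), with a 95% interval of -0.40 to -0.10 (edgeR FDR = 0.039, exact permutation p = 0.00898). Its FDR stayed below 0.1 when any 1 of the 16 libraries was left out (0.0105 to 0.0996). Within libraries numbered 1 to 8 in the labels the log2 CPM difference was -0.36, and within 9 to 16 it was -0.14.

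P2rx7, the other ATP-gated channel, was also lower by the FDR alone, by a smaller step. Its CPM were 150.2, 154.9, 150.8 and 146.7 in the WT females and 141.8, 158.4, 144.5 and 145.8 in the WT males. They were 140.5, 145.2, 133.5 and 137.6 in the KI females and 135.1, 129.3, 153 and 131.6 in the KI males. Of the KI libraries 7 of 8 lay below the WT median, and KI male 3 lay above it. The mean was 149.1 ± 5.56 in WT and 138.2 ± 7.8 CPM in KI (SD, n = 8 each). The log2 fold change was -0.11 ± 0.04 (SE), with a 95% interval of -0.19 to -0.03 (edgeR FDR = 0.092, exact permutation p = 0.00857). In the 16 fits that left out 1 library this FDR ranged from 0.0222 to 0.196, and it was below 0.1 in 4 of them, without WT male 1, WT male 3, KI female 2 or KI male 3. It was also above 0.1 with RLE normalization (edgeR FDR = 0.101), upper quartile normalization (0.128) and no filter on low counts (0.376).

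**Figure D2:**
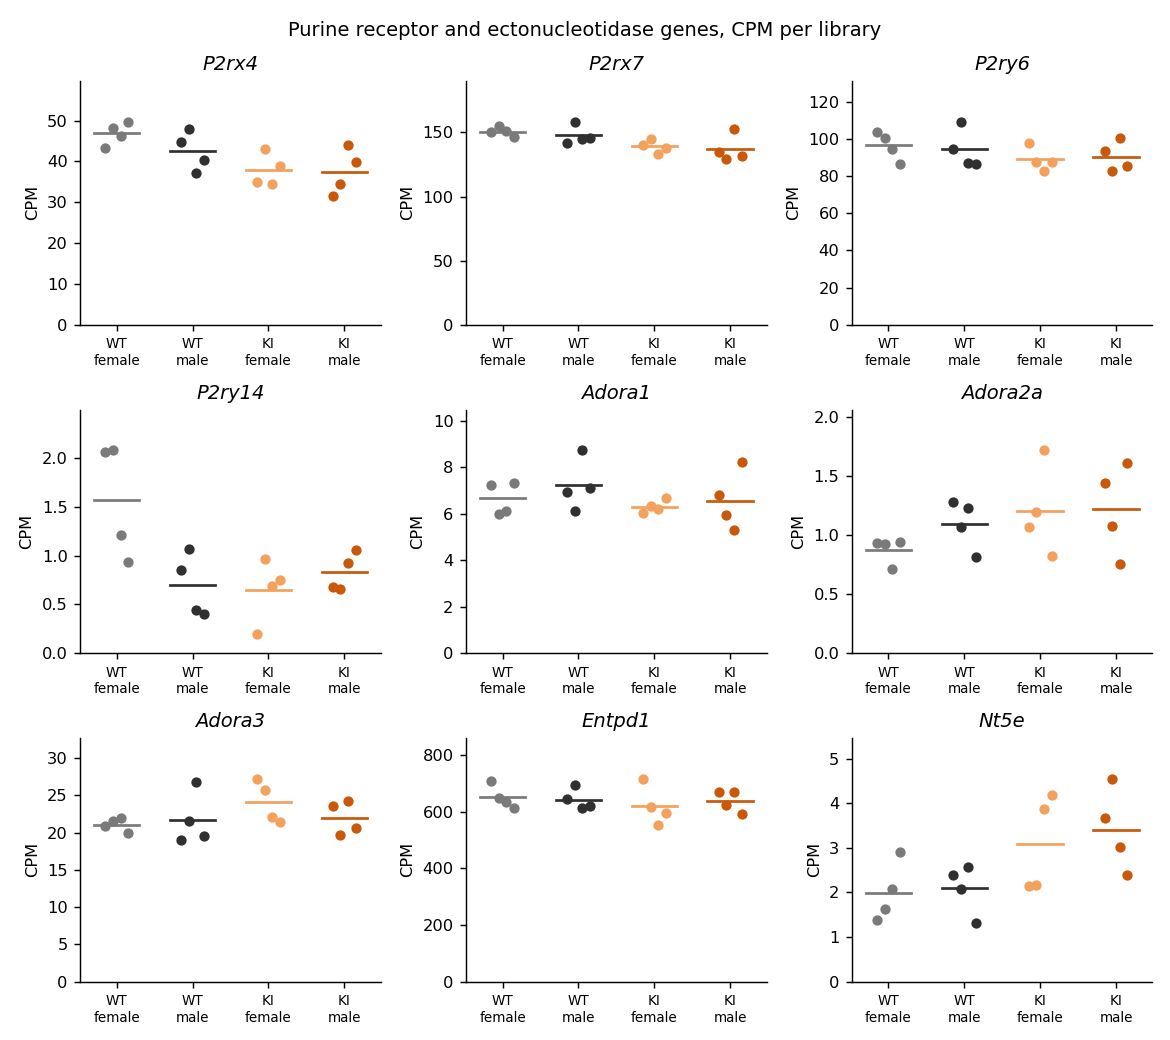
CPM of each of the 9 genes in every library, by genotype and sex (4 libraries per group), with a line at each group's mean. Nt5e is higher and P2rx4 and P2rx7 are lower in most KI libraries, P2ry14 is high in 2 WT females, and the other genes overlap broadly.

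Markers of other cells moved with genotype beside these results. The 11 neuron markers summed to 350.3 ± 54.1 CPM in WT and 447.6 ± 55.6 CPM in KI (SD, n = 8 each), led by Gad1, with 9 of 11 above 0 and 5 of 11 past the FDR, all higher. The sums were 280, 278.3, 354.9 and 368 CPM in the WT females, 391.4, 312.4, 404.4 and 413.4 in the WT males, 408.1, 409, 527.3 and 434 in the KI females and 478.5, 499, 357.8 and 466.9 in the KI males. KI male 3, the KI library with the most P2rx7 and P2rx4, had the lowest neuron sum of the KI libraries. Over the 16 libraries the Pearson r with the neuron sum was -0.89 for P2rx7 and -0.77 for P2rx4, as a description of values that share each library's scaling. For genes that did not pass, this r was -0.80 (P2ry6), -0.60 (Entpd1) and 0.05 (Adora3).

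The 6 oligodendrocyte markers, led by Mbp, summed to 286.1 ± 69 CPM in WT and 354.9 ± 45.2 CPM in KI (SD, n = 8 each), with 3 of 6 past the FDR, all higher, and Mog called. By library they summed to 352.2, 427.5, 269.7 and 231.2 CPM in the WT females, 262.5, 270.5, 231.1 and 243.7 in the WT males, 412.9, 364.9, 335.4 and 282.3 in the KI females and 358.1, 368.6, 308.9 and 408.5 in the KI males. Among males every KI library exceeded every WT library, while among females they overlapped. Of the 10 immediate early genes, led by Jun, 9 were called lower in KI, with sums of 9447 ± 3471 CPM in WT and 4141 ± 1463 CPM in KI (SD, n = 8 each). These sums were 13870, 14490, 10700 and 10680 CPM in the WT females, 6223, 5987, 6569 and 7064 in the WT males, 3158, 3866, 3107 and 5759 in the KI females and 2768, 2707, 5530 and 6234 in the KI males. The WT females had the highest immediate early sums. The part of these markers in the results for Nt5e, P2rx4 and P2rx7 was not tested. In bulk libraries, fewer cells of a type and less RNA per cell cannot be told apart.

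P2ry6, the UDP receptor, did not pass. It ran from 86.44 to 109.2 CPM with a median of 94.5 in WT and from 82.76 to 100.2 CPM with a median of 87.7 in KI. The log2 fold change was -0.09, with a 95% interval of -0.21 to 0.03 (edgeR FDR = 0.385, exact permutation p = 0.177). Of the KI libraries 6 of 8 lay below the WT median. The gene Gm44545, a short unclassified transcript inside the P2ry6 span on the other strand with no shared exon, was called lower (log2 -1.45, edgeR FDR = 0.0115).

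Entpd1, the enzyme that clears ATP and ADP, differed least. It ran from 611.1 to 708.3 CPM with a median of 639.2 in WT and from 553.6 to 716.5 CPM with a median of 619.1 in KI. Its log2 fold change was -0.04 with a 95% interval of -0.15 to 0.07 (edgeR FDR = 0.711, exact permutation p = 0.44). With 5459 to 12360 counts per library, this interval was narrower than that of every other gene of the 9 but P2rx7.

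The 3 adenosine receptors did not pass either, and their intervals widened as counts fell. Adora3, a Gi-coupled receptor, ran from 19.02 to 26.79 CPM with a median of 21.2 in WT and from 19.61 to 27.23 CPM with a median of 22.8 in KI. Its log2 fold change was 0.11, with a 95% interval of -0.06 to 0.28 (edgeR FDR = 0.444, exact permutation p = 0.213). Of its exonic bases 22.1% are shared with Tmigd3 and Gm53046 on the same strand, which had at most 2 and 0 counts.

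Adora1, also Gi-coupled, ran from 6.012 to 8.742 CPM with a median of 7.02 in WT and from 5.289 to 8.221 CPM with a median of 6.27 in KI. Its log2 fold change was -0.11, with a 95% interval of -0.32 to 0.11 (edgeR FDR = 0.585, exact permutation p = 0.249). In the annotation 52.4% of its exonic bases are shared with Mybph on the other strand. The strand setting of the counts was not given in the sources used here, so reads of this pair may not be separable. Adora2a, the Gs-coupled receptor, had 8 to 23 counts per library. It ran from 0.7139 to 1.285 CPM with a median of 0.939 in WT and from 0.7556 to 1.722 CPM with a median of 1.14 in KI. Its log2 fold change was 0.30, with a 95% interval of -0.13 to 0.73 (edgeR FDR = 0.412, exact permutation p = 0.17), and 6 of 8 KI libraries lay above the WT median.

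P2ry14, the receptor for UDP-glucose, was called in females and not over both sexes. Its CPM were 2.064, 2.081, 1.214 and 0.9398 in the WT females and 0.2007, 0.9702, 0.6889 and 0.7484 in the KI females. They were 0.8566, 1.069, 0.4483 and 0.4063 in the WT males and 0.6805, 0.6619, 0.9235 and 1.054 in the KI males. WT females 1 and 2 stood highest of all 16 libraries, and the female groups overlapped at KI female 2 and WT female 4. Within females P2ry14 was called lower, with a log2 fold change of -1.27 ± 0.399 (SE) and a 95% interval of -2.11 to -0.43 (edgeR FDR = 0.0714). It was the 1 of 9 genes called in females, where 7.15% of all tested genes were called, 4.33% lower. By the FDR alone 2 of 9 passed in females, P2ry14 and P2rx4 (log2 -0.31, edgeR FDR = 0.0918), against 9.42% of all tested genes. When 1 of the 16 libraries was left out, P2rx4 in females stayed below an edgeR FDR of 0.1 in 4 fits, without WT male 2, KI female 2 or KI male 1 or 3 (0.0778 to 0.25 over all 16), and without WT females 1 and 2 it was at 0.331, with a log2 fold change of -0.33. In males the P2ry14 difference was 0.18 (edgeR FDR = 0.9), and 0 of 9 genes were called where 0.252% of all tested genes were. At an unadjusted p under 0.05, 1 of 9 passed in males, Nt5e, beside 11.7% of all tested genes. Over both sexes P2ry14 had a log2 fold change of -0.59 with a 95% interval of -1.28 to 0.10 (edgeR FDR = 0.292, exact permutation p = 0.206).

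The difference between the sexes was itself tested. P2ry14 had a genotype by sex log2 difference of -1.45 (edgeR unadjusted p = 0.0236, FDR = 0.728), so its call in females is not shown to differ from males. None of the 9 genes was called in this test by edgeR, DESeq2 or limma voom, and 0.0274% of all tested genes were. At an unadjusted edgeR p below 0.05, 1 of 9 passed, beside 5.94% of all tested genes. Between females and males over both genotypes 0 of 9 were called by edgeR, DESeq2 or limma voom beside 0.0604% of all tested genes. At an unadjusted edgeR p below 0.05, 0 of 9 passed, beside 6.56% of all. The lowest FDR there was 0.827, for P2ry14.

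P2ry14 rested on 3 to 33 counts per library. At 95% confidence, a count of 0 allows an expected count of up to about 3. Marker sums of vessel cells and astrocytes were set beside P2ry14. The 9 endothelial markers, led by Pecam1, summed to 168.9, 209.1, 127.1 and 97.92 CPM in the WT females, 98.47, 89.85, 108.7 and 86.22 in the KI females, 75.63, 68.62, 81.93 and 76.48 in the WT males and 85.14, 118.1, 84.79 and 109.9 in the KI males. In females 6 of 9 were called lower in KI, among them Cldn5 and Flt1. The 9 pericyte and fibroblast markers, led by Rgs5, of which Kcnj8 and Lum were under the filter, summed to 101.3, 96.53, 65.46 and 54.43 CPM in the WT females, 39.94, 48.73, 56.92 and 53.44 in the KI females, 37.6, 29.02, 37.43 and 36.67 in the WT males and 39.55, 55.27, 42.14 and 48.56 in the KI males. The 8 astrocyte markers, led by Slc1a2, summed to 991.3, 1185, 723.9 and 619.4 CPM in the WT females, 782.1, 708.4, 490.9 and 525.2 in the KI females, 605.9, 580.6, 668.5 and 648.6 in the WT males and 668.5, 642.4, 521.4 and 798.9 in the KI males. In females 8 of 8 were below 0 and 3 of 8 were called lower in KI, Gfap, Aldoc and Aqp4. KI female 1, with the least P2ry14 at 0.2007 CPM, had the highest astrocyte sum of the KI females, at 782.1 CPM. WT females 1 and 2, the libraries with the most P2ry14, also had the highest sums of all 3 lists. They had the highest immediate early sums (13870 and 14490 CPM) and the lowest neuron sums (280 and 278.3 CPM) as well.

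Without these 2 libraries the P2ry14 difference in females was -0.73 (edgeR FDR = 0.673). Leaving out WT female 1, WT female 2, KI female 1, KI female 3 or KI female 4 alone also ended the call, with a log2 fold change of -1.07, -1.12, -0.93, -1.30 or -1.33 and an edgeR FDR of 0.248, 0.195, 0.169, 0.147 or 0.115. Without WT females 1 and 2, Nt5e had a log2 fold change of 0.54 (edgeR FDR = 0.201), P2rx4 -0.25 (edgeR FDR = 0.104) and P2rx7 -0.10 (edgeR FDR = 0.239). The part of the vessel, astrocyte, neuron and immediate early markers in the P2ry14 result was not tested. WT females 1 and 2 were also the highest in P2ry14 itself. Within libraries numbered 1 to 8 the P2ry14 log2 CPM difference over both sexes was -1.12, and within 9 to 16 it was 0.24.

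**Figure D3:**
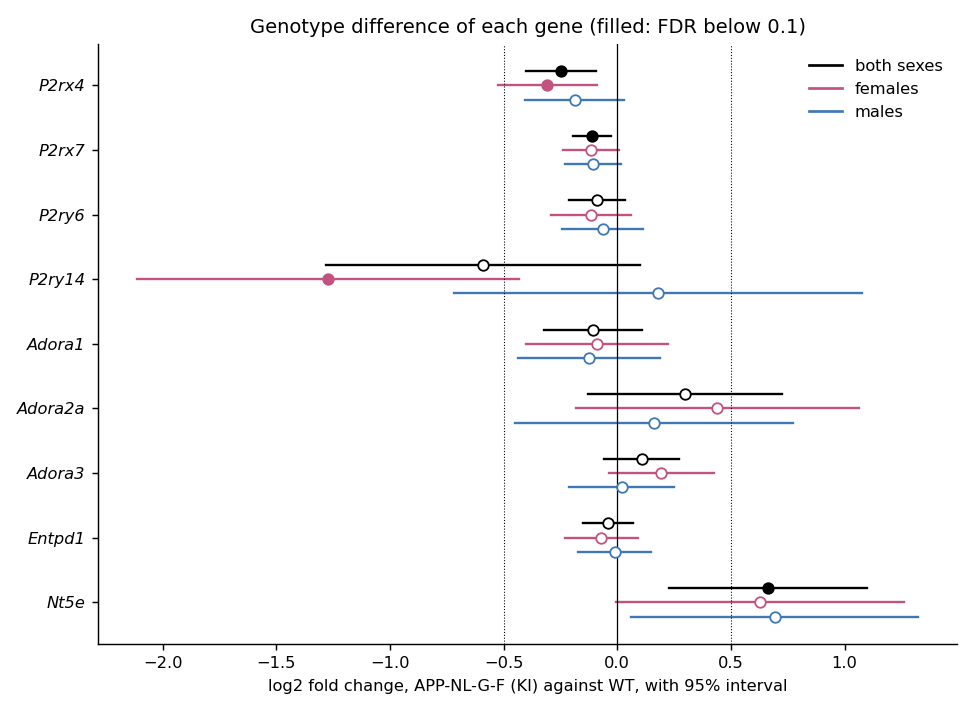
Log2 fold change of KI against WT with its 95% interval for each of the 9 genes, over both sexes (black), in females (red) and in males (blue), filled where the FDR was below 0.1, with dotted lines at -0.5 and 0.5. Nt5e passes both thresholds over both sexes, and P2rx4 and P2rx7 pass the FDR inside the dotted lines. P2ry14 passes in females only, and its genotype by sex difference was tested and did not pass (edgeR FDR = 0.728).

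The rest of the purine pathway was described by 45 further genes, of which 34 were tested. Of these 1 was called over both sexes, P2rx6, lower, beside 8.64% of all tested genes called and 4.3% called lower, with 13 of 34 above 0, 21 below and a median log2 fold change of -0.02. P2rx6 encodes a P2X subunit. P2ry12 and P2ry13 were not called, with log2 fold changes of 0.07 (edgeR FDR = 0.471) and 0.12 (edgeR FDR = 0.163). Among 11 other receptors 7 were tested, the most abundant being P2ry10b and P2rx1, with a median of -0.17. P2ry10 and P2ry10b were listed by name, and whether nucleotides act on them was not tested. Among 14 other enzymes of ectonucleotidase and related families, led by Entpd7 and Enpp1, 8 were tested, 0 were called and the median was -0.00. Entpd4 was at 0 in all libraries and Entpd4b had 1 count in all, and both have an annotated exonic length of 8074 bases. Whether reads of these genes could be counted apart was not tested, so the 0 is not read as absence. All 6 genes of ATP release, led by Calhm2 and the volume-regulated channel subunit Lrrc8a, were tested, 0 were called and the median was 0.04. Of 12 genes that transport or convert adenosine, led by Slc29a3, a lysosomal nucleoside carrier at 264.4 CPM, and the purine salvage enzyme Hprt, 11 were tested, 0 were called and the median was -0.03. At an unadjusted p below 0.05, 5 of the 34 passed, beside 24.1% of all tested genes.

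P2rx6 had 2.189, 2.543, 1.285 and 1.282 CPM in the WT females, 0.4683, 0.07463, 0.6889 and 0.5239 in the KI females, 0.9422, 0.8999, 0.5604 and 0.3047 in the WT males and 0.3402, 0.4964, 0.7556 and 0.9135 in the KI males. All 8 KI libraries lay below the WT median of 1.112 CPM, but over both sexes the genotypes overlapped. Its log2 fold change was -1.15 ± 0.378 (SE) over both sexes (edgeR FDR = 0.0633) and -2.03 in females (edgeR FDR = 0.0103), and its genotype by sex difference of -1.88 did not pass (edgeR FDR = 0.599). P2rx6 had 1 to 35 counts per library. Within libraries numbered 1 to 8 its log2 CPM difference was -1.82, and within 9 to 16 it was -0.07. In females 3 of the 34 were called lower, where 7.15% of all tested genes were called and 4.33% called lower. They were P2rx6, the receptor P2ry10 (log2 -1.09, edgeR FDR = 0.089) and the alkaline phosphatase Alpl (log2 -1.17, edgeR FDR = 0.0449). In males Alpl was called higher (log2 2.00, edgeR FDR = 0.0876), from 2 to 5 counts in the WT males to 11 to 18 in the KI males. Alpl is also known as a gene of brain vessels. Without WT females 1 and 2 none of the 3 female calls held, with a log2 fold change of -1.54 for P2rx6 (edgeR FDR = 0.226), -1.25 for P2ry10 (edgeR FDR = 0.246) and -0.75 for Alpl (edgeR FDR = 0.53). The difference of P2ry10 was thus as large without them, on fewer libraries. With the same libraries left out, P2rx6 over both sexes had a log2 fold change of -0.76 (edgeR FDR = 0.29). When 1 of the 16 libraries was left out, P2rx6 kept its call over both sexes in 7 fits, without WT male 1, 3 or 4, WT female 3 or 4, or KI male 3 or 4 (edgeR FDR over all 16 fits 0.03 to 0.137). P2ry10 kept its female call in 5 fits, without WT male 2, WT female 3, KI female 1 or KI male 2 or 3 (edgeR FDR 0.0786 to 0.242). Alpl lost its female call without WT female 1 or 2 or KI female 2 or 4 (edgeR FDR 0.0242 to 0.211). Alpl kept its male call in 6 fits, without WT female 1 or 4, KI female 3 or 4, or KI male 3 or 4 (edgeR FDR 0.0507 to 0.28).

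**Figure D4:**
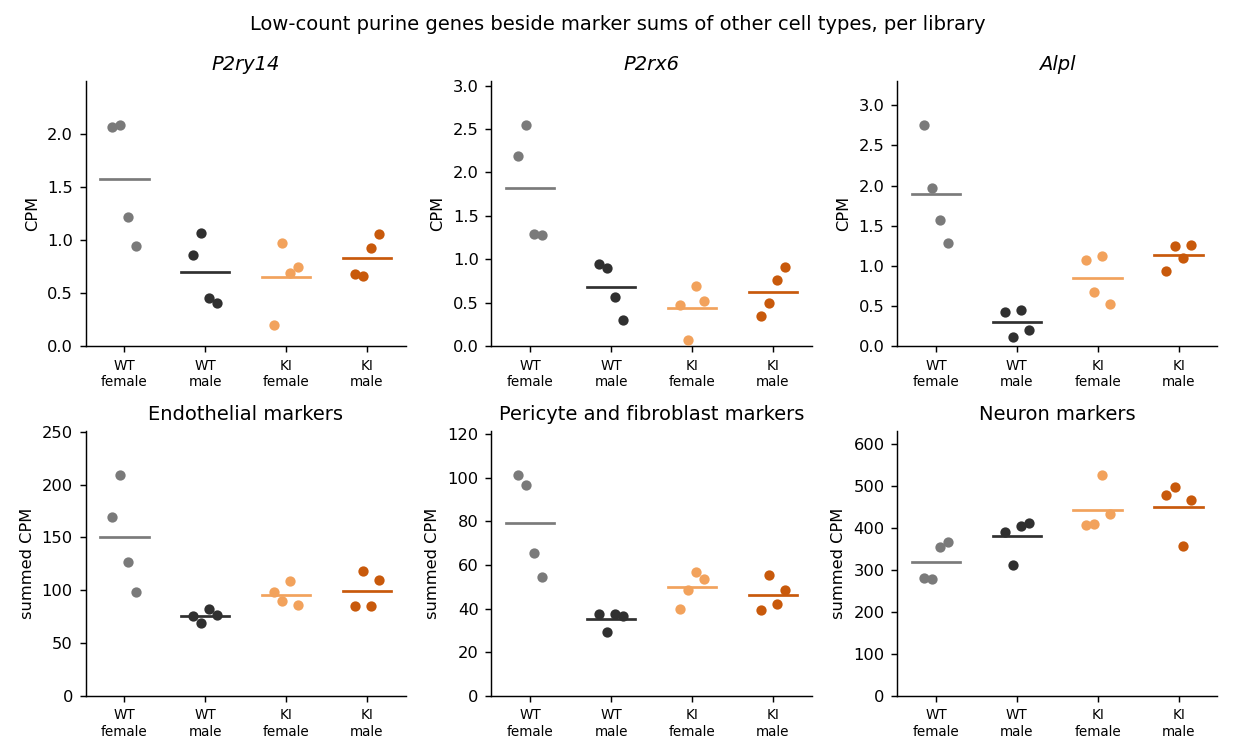
CPM of P2ry14, P2rx6 and Alpl in every library (top) and summed CPM of the endothelial, the pericyte and fibroblast, and the neuron markers (bottom), by genotype and sex, with a line at each group's mean. WT females 1 and 2 are highest in the 3 genes and in the vessel marker sums, and the neuron sums are higher in most KI libraries.

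The 9 genes varied together only in part across the 16 libraries. P2ry6 and Entpd1 were the closest pair, with a Pearson r of 0.86 in log2 CPM, and the r was 0.86 again for the deviations from the group means. P2rx4 and P2rx7 had an r of 0.79, or 0.61 for the deviations, and P2rx7 and P2ry6 an r of 0.75, or 0.74. P2rx7 and Nt5e had an r of -0.64, or -0.36 for the deviations. These are descriptions, since the genes share libraries, scaling and depth.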

How the data were processed

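RNA of CD11b-selected olfactory bulb cells was made into stranded total RNA libraries. The authors used STAR with GRCm39, gencode vM32 and an added human App sequence, and deposited raw counts per gene, which are whole numbers. The strand setting was not given in the sources used here, and depth was 9052932 to 18117286 counts per library. The 18227 genes that reached 5 counts in 50% or more of the libraries were normalized by TMM and tested with edgeR 4.0.16 in R 4.3.3 with glmQLFit and glmQLFTest, with sex and genotype as terms, or as 4 groups for each sex and the genotype by sex test. Calls needed an FDR below 0.1 together with a log2 fold change beyond 0.5 in either direction. SE is the absolute log2 fold change over the square root of F, and intervals are 95%. Exact permutations exchanged genotype within sex. Log2 CPM used a prior count of 2. Alternatives were other normalizations and filters, DESeq2 1.42.0, limma 3.58.1 voom, other thresholds and a replicate block. Further ones were the library number range (1 to 8 or 9 to 16) as a term and leaving out each library. Only the genotype test over both sexes was checked on simulated counts. The planted changes were larger than those found for Nt5e, P2rx4 and P2rx7. Positions and exonic lengths came from GENCODE vM39 on GRCm39, later than the vM32 of the counts, and promoters from RefSeq on GRCm38.p6.

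The 9 genes and all lists were chosen with earlier results of these data known. Named are the 9 genes, the other purine genes that were called or under the FDR, the most abundant genes of each list, the genes most like a purine gene in pattern, overlapping genes and the leading marker of each list. The other marker genes named (Mog, Cldn5, Flt1, Kcnj8, Lum, Gfap, Aldoc and Aqp4) and P2ry2 and P2rx3 were chosen after their values were seen. The genes most like P2rx4 in pattern are not reported here.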

Additional observations from a re-analysis of the deposited data

Results flagged for a closer look

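Within groups of 4 libraries, the gap of the highest or lowest library to its neighbour was divided by the range of the group. In 2 of 60 groups this share exceeded the critical value of 0.829 (Dixon's test at 95%), where chance gives about 3. For Adora2a, WT female 3 was the lowest of its group at 0.7139 CPM, with a share of 0.94. For P2ry13, WT female 1 was the highest of its group, with a share of 0.877.

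The genotype by sex difference of Alpl was called, as it was for 0.0274% of all tested genes. The genotype difference of Alpl was -1.17 in females and 2.00 in males on the log2 scale. The genotype by sex difference was -3.17, with a 95% interval of -4.30 to -2.04 (edgeR FDR = 0.0877). Whether this call holds with libraries left out was not examined. Alpl had 15 to 44 counts in the WT females and 2 to 5 in the WT males. The endothelial marker sum was 150.8 ± 48.6 CPM in WT females and 75.7 ± 5.46 CPM in WT males (SD, n = 4 each), against 95.8 ± 10 and 99.5 ± 17.1 CPM in KI females and males. The part of these markers in the Alpl result was not tested.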

How the results depend on the processing

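The count of 1 purine gene called over both sexes, Nt5e, was also 1 under other normalizations, DESeq2, limma voom, other filters, no sex term and the replicate block. It was 0 at an FDR below 0.05, 3 by the FDR alone, 0 without both WT females 1 and 2, a setting chosen after seeing the data, and 0 to 1 when 1 library was left out. Calls over all tested genes fell in the same settings, from 1574 to 1107 at 0.05 and to 867 without both libraries, and rose to 2692 by the FDR alone. The 3 genes under the FDR became 2, without P2rx7, with RLE or upper quartile normalization or no filter, 1 at 0.05, 0 without both libraries and 1 to 3 when 1 was left out. In females the count of 1 became 0 at 0.05, 2 by the FDR alone, 0 without both libraries and 0 to 2 when 1 was left out, where the 2 included Nt5e. The counts of 0 in males, in the genotype by sex test and between the sexes were 0 in every alternative. Of the other purine genes the count of 1 over both sexes became 2 with limma voom, where P2ry2 was added, 0 at 0.05, 0 without both libraries and 0 to 2 when 1 was left out. Their count of 3 in females became 4 with no filter, where P2rx3 was added, 2 at 0.05 and with the replicate block, both without P2ry10, 0 without both libraries and 1 to 3 when 1 was left out. With the replicate block the purine genes called numbered 1 over both sexes and 1 in females, and the other purine genes called over both sexes 0, since P2rx6 had an edgeR FDR of 0.105. Replicate numbers share only a number in the labels. The correlations of same-numbered libraries ran from -0.472 to 0.422, and 8 of 16 libraries correlated best with their own number. Libraries 1 to 8 held replicates 1 and 2 of each group, and 9 to 16 held replicates 3 and 4. The correlation within a library's own number range minus that with the other range ran from -0.372 to 0.378. It was below 0 in KI males 1, 2 and 3 and above 0 in the other libraries. The exact permutations did not take these ranges into account. Of the fold changes refitted under the alternatives none reversed, that is those of the 9 genes over both sexes, P2ry14, P2rx4, P2rx6, P2ry10 and Alpl in females and Alpl in males. The P2ry14 difference over both sexes had opposite signs in libraries 1 to 8 and 9 to 16. P2rx4 in females had an FDR of 0.107 with upper quartile normalization and 0.109 with filterByExpr. The causes were not tested. P2ry14, Adora2a, P2rx6 and Alpl had at most 33, 23, 35 and 44 counts in a library, and how depth bears on their calls was not tested.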

Other observations

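For P2rx7, P2ry6, Entpd1 and Adora3, which had a mean log2 CPM of at least 3, the 3 most similar of the other 9410 genes at that level were listed by Pearson r of log2 CPM over the 16 libraries. The values are descriptions with no test, since the libraries share scaling, composition and genotype differences. P2rx7 was closest to the lysosomal protease Ctsz (0.96), then to the actin-severing factor Cfl1 (0.95) and Elf4 (0.92). P2ry6 was closest to Set (0.95), P4hb (0.94) and Rnf167 (0.94). Entpd1 was closest to the lysosomal GTPase Arl8b (0.92), Peg10 (0.90) and Pdia6 (0.90). Adora3 was closest to Rab39 (0.87), Zfp113 (0.85) and Ube2w (0.84). Its Pearson r with the neuron marker sum was 0.05, against -0.80 for P2ry6 and -0.60 for Entpd1.

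Over both sexes the astrocyte marker sums were 752.9 ± 217.7 CPM in WT and 642.2 ± 119.7 CPM in KI (SD, n = 8 each), led by Slc1a2, with 0 of 8 called and Gfap past the FDR, lower, over both sexes.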
